A study of Homo sapiens with 30 samples.

Results

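The genes of the STING and RNA-sensing pathway were followed in OPM2 and H929 cells, both multiple myeloma cell lines, that is, lines from a cancer of plasma cells. The 10 members were chosen by gene symbol: TMEM173 (STING), MB21D1 (cGAS), TREX1, DDX58 (RIG-I), IFIH1 (MDA5), DHX58 (LGP2), MAVS, TBK1, IRF3 and IRF7. They are 10 of the 25680 symbols in the files, and all 10 were among the 16408 genes with enough counts to be tested. RNA was measured after 24 h with 100 nM dBRD9-A, a compound that degrades BRD9, a bromodomain protein of a BAF chromatin remodelling complex, or with the solvent DMSO. The 4 groups were OPM2 with dBRD9-A, OPM2 with DMSO, H929 with dBRD9-A and H929 with DMSO, with 3 libraries each and no other agent named in the labels. The labels do not say whether replicates were grown separately, so the p-values rest on a spread between libraries that could be technical. Another 18 samples of the series were not analysed here.

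Cells recognise misplaced nucleic acid in their cytosol. The enzyme cGAS binds DNA and makes the messenger cGAMP, which activates the membrane protein STING, while the helicases RIG-I and MDA5 bind viral or other unusual RNA and activate MAVS on mitochondria. Both routes meet at the kinase TBK1 and the transcription factors IRF3 and IRF7, which turn on interferon genes. Several of the sensors are themselves induced by interferon.

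Library totals, with 1 transcript per symbol, were 24524193 counts in OPM2 dBRD9-A replicate 2 and 42895389 to 76600945 in the others. OPM2 dBRD9-A replicate 2 stood apart. Its log2 deviations from the mean of its group mates had an SD of 0.793 over genes with a mean above 3 log2 CPM, against 0.378 and 0.444 in those mates and 0.108 to 0.241 in the other 9 libraries. Its deviations followed GC content (Spearman -0.7 across genes), which was not particular to it. Its group mates had 0.64 and 0.71, and H929 dBRD9-A replicates 1 and 2 had -0.63 and 0.65. OPM2 DMSO replicates 1 and 3 had 0.41 and -0.47, and the remaining libraries lay between -0.29 and 0.18. Because of its larger SD, most results in OPM2 are given with and without OPM2 dBRD9-A replicate 2. All 8 plasma cell markers exceeded 1 CPM (counts scaled by library total and TMM factors) in every group. Their sum was 3820 to 5220 CPM with dBRD9-A and 5250 to 6040 CPM with DMSO in OPM2, and 5220 to 5480 and 6130 to 6800 CPM in H929, so it was lower with dBRD9-A in both lines without overlap. In each line 2 of these 8 markers were called lower and 0 higher, where 7.34% of all genes were called lower in OPM2 and 5.67% in H929. Without OPM2 dBRD9-A replicate 2, 3 were called lower and 1 higher in OPM2, and 4 and 0 in H929. XBP1 averaged 1760 CPM with dBRD9-A and 1480 CPM with DMSO in OPM2. CD38 averaged 23.8 and 22.1 CPM in OPM2 and 37.0 and 34.7 CPM in H929, so not every marker was lower. In OPM2 the summed T and NK cell markers stayed at or under 1.39 CPM and the myeloid markers at or under 0.887 CPM. In H929 the 6 T and NK cell markers summed to 39.6 to 41.6 CPM with dBRD9-A and 27.1 to 30.2 CPM with DMSO, most of it CD3E. GNLY was at 1.54 and 3.7 CPM and NKG7 at 0.962 and 1.15 CPM. CD3D was at 0.0189 and 0 CPM, and CD2 and CD3G were at or under 0.356 CPM. The 5 myeloid markers summed to 5.12 to 10.6 CPM with dBRD9-A and 1.57 to 4.16 CPM with DMSO in H929, most of it CSF1R, while CD14 and LYZ were at or under 0.125 CPM. In H929 the 6 stromal and epithelial markers summed to 40.0 to 64.0 CPM with dBRD9-A and 33.6 to 45.2 CPM with DMSO, and in OPM2 to at most 2.66 CPM. Most of the H929 sum was PECAM1 (39.6 and 32.9 CPM) and KRT18 (13.0 and 6.89 CPM). COL1A1 was at 1.81 and 0.217 CPM there, while COL1A2 and COL3A1 were at 0 CPM and EPCAM at or under 0.012 CPM. Among 4 tested T and NK cell markers, 1 was called higher and 1 lower in H929. Among 3 tested stromal and epithelial markers, 1 was called higher in each line. A myeloid marker, 1 of 2 tested, was called higher in H929, and 1 of 2 mature B cell markers lower in OPM2. All genes called were 17.4% in OPM2 and 13.0% in H929. The mature B cell markers summed to at most 2.65 CPM and the dendritic cell markers to at most 0.961 CPM in any library. The part of these markers in the results was not tested. In bulk RNA, a change in the share of cells that express a gene and a change in the RNA per cell cannot be told apart. The transcript of BRD9 averaged 76.3 ± 8.04 CPM with dBRD9-A and 89.7 ± 4.02 CPM with DMSO in OPM2, and 63.6 ± 6.80 and 87.7 ± 13.5 CPM in H929 (SD, n = 3). A degrader acts on the protein, so this transcript does not check the labels.

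With dBRD9-A, STING and the 3 RNA helicases rose in both lines, and the mitochondrial adaptor MAVS rose in H929. The DNA sensor cGAS, the kinase TBK1, both interferon regulatory factors and the nuclease TREX1 were called in neither line. A gene was called at an edgeR adjusted p under 0.05. In OPM2, 4 of the 10 members were called higher and 0 lower, where 17.4% of all genes tested were called, 10.1% higher and 7.34% lower. In H929, 5 members were called higher and 0 lower, where 13.0% of all genes were called, 7.33% higher and 5.67% lower. The treated libraries lay wholly above the DMSO libraries for 4 members in OPM2 and wholly below for 1, against 18.8% and 18.9% of all genes, or 37.7% either way. In H929 these counts were 5 and 2, against 22.0% and 23.6% of all genes, or 45.5% either way. The median log2 fold change of the members was 0.23 in OPM2, where all genes had 0.03, and 0.69 in H929, where all genes had 0.

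Without OPM2 dBRD9-A replicate 2 the same 4 members were called higher in OPM2 and 0 lower, where 31.7% of all genes then passed. Without OPM2 dBRD9-A replicate 1 the count of called members was 2, and without DMSO replicates 1, 2 and 3 it was 2, 2 and 1, while the share of all genes called was 13.7%, 9.16%, 8.28% and 8.91%. In a fit of OPM2 alone it was 1, and 5.82% of all genes were called. In H929 the same 5 members were called in each of 22 alternative fits. The spread is shared between the lines, and leaving out OPM2 dBRD9-A replicate 2 gave 6 members higher and 1 lower in H929, where 35.7% of all genes then passed. In the reported edgeR fit and by DESeq2 no member was called lower in either line, and 1 member in each line had an edgeR unadjusted p under 0.05 in that direction. Limma-voom called 1 lower in each line, as did edgeR without OPM2 dBRD9-A replicate 3 in OPM2, and without OPM2 dBRD9-A replicate 2 or with H929 fitted alone in H929, in all cases MB21D1.

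**Figure D1:**
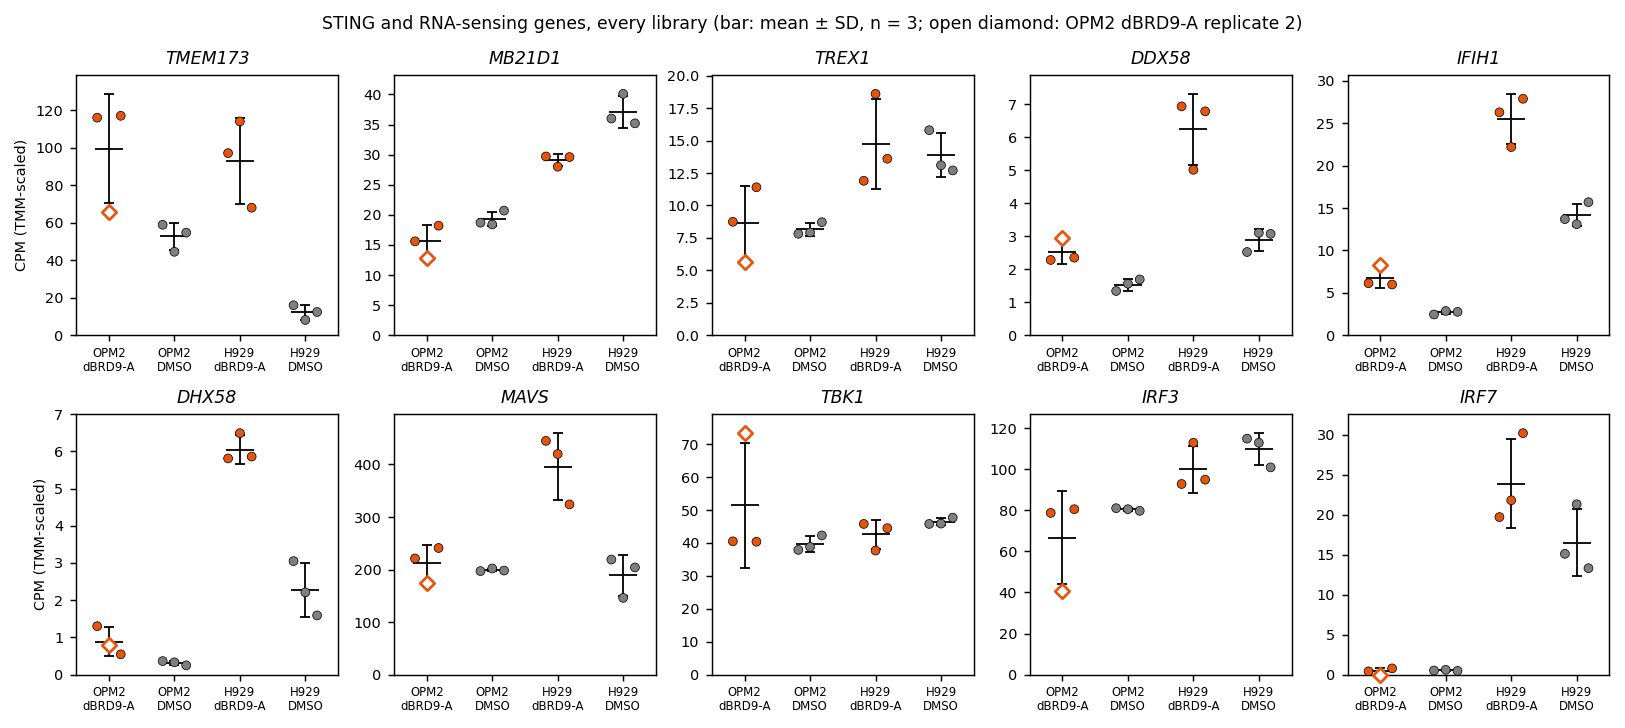
Level of each member in every library, in TMM-scaled CPM on a linear axis from 0 that differs between panels. Points are libraries, bars are the mean ± SD of 3, orange is dBRD9-A, grey is DMSO, and the open diamond is OPM2 dBRD9-A replicate 2. TMEM173, IFIH1, DDX58 and DHX58 lay above DMSO in every treated library of both lines, and MAVS did so in H929.

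TMEM173 encodes STING, the adaptor that binds cGAMP in the endoplasmic reticulum and recruits TBK1. In H929 it was at 97.1, 114 and 68.0 CPM in the dBRD9-A libraries, against 16.0, 8.14 and 12.4 CPM in the DMSO libraries. In OPM2 it was at 116, 65.8 and 117 CPM with dBRD9-A, against 58.9, 44.5 and 54.7 CPM with DMSO. The groups did not overlap in either line, and in DMSO every H929 library was below every OPM2 library. With dBRD9-A the lines overlapped only through OPM2 replicate 2, at 65.8 CPM. The other OPM2 libraries, at 116 and 117 CPM, were above every H929 library. The H929 change was 7.61-fold (log2 fold change 2.93 ± 0.30 SE, edgeR adjusted p = 0.000215), the 99th from the highest of 16408 genes. It was called in all 22 alternatives, with log2 values of 2.73 to 3.21. The OPM2 change was 1.89-fold (0.92 ± 0.28, edgeR adjusted p = 0.0394), and without replicate 2, the lowest of the treated libraries, the log2 value was 1.13 with an adjusted p of 0.00113.

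The OPM2 call on TMEM173 was lost in 10 of 22 alternatives, although the log2 fold change stayed between 0.78 and 1.13 in all of them. The edgeR adjusted p was 0.100 and 0.0804 without OPM2 dBRD9-A replicates 1 and 3, and 0.0820, 0.147 and 0.102 without DMSO replicates 1, 2 and 3. It was 0.0670 and 0.0555 without H929 dBRD9-A replicates 1 and 2 and 0.0682 without H929 DMSO replicate 3, and 0.0866 with OPM2 fitted alone. The H929 libraries enter because all 4 groups shared 1 estimate of the spread per gene.

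The response of TMEM173 was larger in H929 than in OPM2. The difference of the log2 fold changes was 2.01 ± 0.39 (SE), with an edgeR adjusted p of 0.0432. TMEM173 was the single member called in this comparison, where 0.579% of all genes were called. The difference stayed between 1.69 and 2.31 in 21 alternatives and was called in 7 of them. Without OPM2 dBRD9-A replicate 2 it was 1.82 with an adjusted p of 0.00335, and 3.04% of all genes were called. Leaving out any other library in turn ended the call, with adjusted p of 0.0726 and 0.0513 for the other OPM2 dBRD9-A libraries, 0.140, 0.0943 and 0.126 for OPM2 DMSO, 0.138, 0.125 and 0.0593 for H929 dBRD9-A and 0.0552, 0.0988 and 0.140 for H929 DMSO, each in the order of replicates 1 to 3. Scaling by library size alone gave 0.0744, and summing the transcript rows of each symbol gave 0.0552.

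MB21D1 encodes cGAS, the cytosolic DNA sensor upstream of STING. In OPM2 it was at 15.6, 12.9 and 18.2 CPM with dBRD9-A, against 18.7, 18.4 and 20.7 CPM with DMSO. H929 had 29.7, 28.0 and 29.6 CPM with dBRD9-A, against 36.0, 40.1 and 35.2 CPM with DMSO. Every treated library was below every DMSO library of its line, so its direction was opposite to that of STING. The log2 fold changes were -0.31 ± 0.13 (SE) in OPM2 and -0.35 ± 0.13 in H929, with edgeR adjusted p of 0.127 and 0.102, and neither was called. Without OPM2 dBRD9-A replicate 2 the H929 value was -0.32 with an adjusted p of 0.0112, and without replicate 3 the OPM2 value was -0.44 with an adjusted p of 0.0360. The call was also made by limma-voom in both lines (adjusted p = 0.0366 and 0.00942) and with H929 fitted alone (adjusted p = 0.0133).

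TREX1 encodes an exonuclease that removes cytosolic DNA, the substrate of cGAS. It was at 8.74, 5.68 and 11.4 CPM with dBRD9-A in OPM2, against 7.82, 7.92 and 8.71 CPM with DMSO. In H929 the level was 11.9, 18.6 and 13.6 CPM with dBRD9-A, against 15.8, 13.1 and 12.7 CPM with DMSO. Treated and DMSO libraries overlapped in both lines. The log2 fold changes were 0.09 ± 0.23 (SE) in OPM2 and 0.08 ± 0.23 in H929, with edgeR adjusted p of 0.822 and 0.870. In OPM2 the value became 0.29 without replicate 2, and 0.45 with an adjusted p of 0.0441 once the trend with GC content was removed. TREX1 overlaps ATRIP on the same strand, so its counts are uncertain. ATRIP itself averaged 18.2 ± 1.70 CPM with dBRD9-A and 22.4 ± 0.416 CPM with DMSO in OPM2, and 18.4 ± 1.58 and 25.4 ± 1.41 CPM in H929 (SD, n = 3).

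The 3 RNA helicases rose in both lines. DDX58 encodes RIG-I, which binds short RNA with a 5′ triphosphate end, and IFIH1 encodes MDA5, which binds long RNA duplexes. DHX58 encodes LGP2, a relative of both that lacks their signalling domains and modulates them. The promoters of the first pair, from the RefSeq table for GRCh38.p14, are shown because these sensors rose together. In addition, one of them holds the letters searched for here, which are like those of the interferon-stimulated response element. Each line is the 250 bases before the annotated start, 5′ to 3′ in the direction of the gene, and capitals mark pairs of the letters GAAA in the same orientation, on either strand, with any 2 bases between them.
IFIH1 promoter, chr2:162318685-162318934, minus strand: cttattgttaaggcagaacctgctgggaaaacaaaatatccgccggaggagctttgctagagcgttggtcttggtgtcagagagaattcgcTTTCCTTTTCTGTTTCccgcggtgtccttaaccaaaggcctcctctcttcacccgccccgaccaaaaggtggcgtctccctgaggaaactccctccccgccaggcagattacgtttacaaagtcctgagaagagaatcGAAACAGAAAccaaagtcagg
DDX58 promoter, chr9:32526197-32526446, minus strand: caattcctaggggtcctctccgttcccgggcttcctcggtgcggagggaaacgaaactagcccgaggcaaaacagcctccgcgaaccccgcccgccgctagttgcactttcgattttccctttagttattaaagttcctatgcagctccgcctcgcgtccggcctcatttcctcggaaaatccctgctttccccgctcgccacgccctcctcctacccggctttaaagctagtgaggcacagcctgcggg
IFIH1 held 3 such pairs, where 3.02% of 35116 promoters of this length held at least 1. TTTCCTTTTC and TTTCTGTTTC, both on the reverse strand, overlap each other 159 to 144 bases before the start, and GAAACAGAAA lies 21 to 12 bases before it. No such pair was found in the windows of DDX58, MAVS, TBK1 and TREX1. The DDX58 window does hold a pair of GAAA with 1 base between them, a spacing that this search did not count. A search for TTC and GAA with any 3 bases between them, found in 6.57% of promoters, had no match in the 5 windows. The table matched 5 of the 10 members, and TMEM173, MB21D1, DHX58, IRF3 and IRF7 are named only. A match is a description of the sequence and not a site of binding.

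IFIH1 was at 6.14, 8.25 and 5.99 CPM with dBRD9-A in OPM2, against 2.45, 2.86 and 2.76 CPM with DMSO. H929 libraries held 26.3, 22.2 and 27.9 CPM with dBRD9-A, against 13.7, 13.1 and 15.7 CPM with DMSO. The groups were well apart in both lines, and all H929 libraries were above all OPM2 libraries. The change was 2.50-fold in OPM2 (log2 fold change 1.32 ± 0.16 SE, edgeR adjusted p = 0.000323) and 1.80-fold in H929 (0.85 ± 0.15, edgeR adjusted p = 0.00448). Both calls on IFIH1 held in all 22 alternatives, and without OPM2 dBRD9-A replicate 2 the OPM2 value was 1.16. No other member was called in OPM2 under every alternative.

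DDX58 was at 2.28, 2.95 and 2.35 CPM with dBRD9-A in OPM2, against 1.34, 1.56 and 1.69 CPM with DMSO. In H929 it was at 6.93, 5.01 and 6.78 CPM with dBRD9-A, against 2.52, 3.10 and 3.07 CPM with DMSO. The groups did not overlap in either line, and the lowest library held 70 counts. DDX58 rose 2.16-fold in H929 (log2 fold change 1.11 ± 0.19 SE, edgeR adjusted p = 0.00303), a call made in all 22 alternatives, and 1.63-fold in OPM2 (0.71 ± 0.19, edgeR adjusted p = 0.0271). In OPM2 the value was 0.58 without dBRD9-A replicate 2 (adjusted p = 0.0262). The OPM2 call was lost without DMSO replicates 1, 2 and 3, with adjusted p of 0.108, 0.0811 and 0.0542, and with OPM2 fitted alone (0.0972). DDX58 also overlaps 2 long non-coding RNA loci, from which its reads may not be separated.

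DHX58 was low in OPM2, at 1.30, 0.800 and 0.543 CPM with dBRD9-A, against 0.361, 0.329 and 0.247 CPM with DMSO. These were 88, 19 and 36 counts, against 23, 24 and 19 counts. H929 had 5.81, 6.49 and 5.86 CPM with dBRD9-A, against 3.05, 2.21 and 1.59 CPM with DMSO. Treated libraries were above DMSO libraries throughout each line. The change was 2.86-fold in OPM2 (log2 fold change 1.51 ± 0.36 SE, edgeR adjusted p = 0.0132) and 2.65-fold in H929 (1.40 ± 0.29, edgeR adjusted p = 0.00939). In OPM2 the value was 1.56 without dBRD9-A replicate 2 (adjusted p = 0.00457), 1.04 without replicate 1 (adjusted p = 0.0666) and 1.36 without DMSO replicate 3 (adjusted p = 0.0615). With OPM2 fitted alone the adjusted p was 0.0842. The H929 call held in all 22 alternatives.

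The differences of the helicase responses between the lines, H929 minus OPM2, were 0.40 for DDX58, -0.47 for IFIH1 and -0.11 for DHX58 on the log2 scale. Their edgeR adjusted p were 0.694, 0.583 and 0.955, with SE of 0.27, 0.22 and 0.44, so differences of this size were not detectable here.

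MAVS encodes the mitochondrial adaptor through which RIG-I and MDA5 signal. In H929 the level was 445, 420 and 324 CPM with dBRD9-A, against 219, 146 and 204 CPM with DMSO. In OPM2 it was at 221, 174 and 241 CPM with dBRD9-A, against 197, 202 and 198 CPM with DMSO. The H929 groups were apart, and in OPM2 treated replicate 2 was below and the other treated libraries were above all DMSO libraries. MAVS rose 2.09-fold in H929 (log2 fold change 1.07 ± 0.17 SE, edgeR adjusted p = 0.00256), a call made in all 22 alternatives. In OPM2 the value was 0.09 ± 0.17 (adjusted p = 0.754), and 0.20 without replicate 2 (adjusted p = 0.336). The difference of the responses was 0.97 ± 0.24 on the log2 scale and was not called (edgeR adjusted p = 0.131). It was called in 3 of 21 alternatives, with 0.89 and an adjusted p of 0.0280 without OPM2 dBRD9-A replicate 2, 0.99 and 0.0171 in DESeq2, and 0.79 and 0.0118 in limma-voom. The call on this difference thus depended on the setting.

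**Figure D2:**
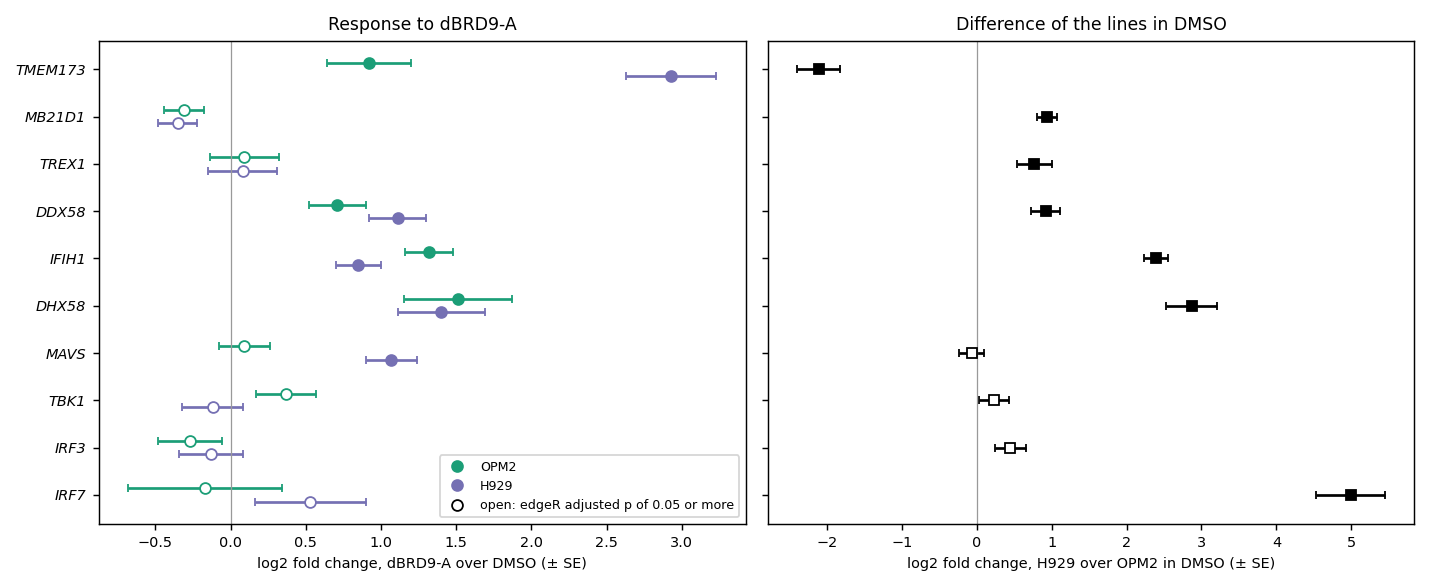
Left, log2 fold change of each member for dBRD9-A over DMSO in OPM2 (green) and H929 (violet). Right, log2 fold change for H929 over OPM2 in DMSO. Bars are SE from the edgeR fit and open symbols have an adjusted p of 0.05 or more. TMEM173 has the largest H929 response of the members, 2.93, and is the single member called lower in H929 than in OPM2 in DMSO.

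TBK1 encodes the kinase that STING and MAVS share. In OPM2 it was at 40.5, 73.4 and 40.4 CPM with dBRD9-A, against 37.9, 38.8 and 42.3 CPM with DMSO. In H929 it was at 45.8, 37.7 and 44.5 CPM with dBRD9-A, against 45.8, 45.9 and 47.7 CPM with DMSO. One library, OPM2 dBRD9-A replicate 2, was far above the rest, and the others of both lines lay close together. The log2 fold change was 0.37 ± 0.20 (SE) in OPM2, 0.02 without replicate 2, and -0.12 ± 0.20 in H929, with edgeR adjusted p of 0.212, 0.928 and 0.753. None of 22 alternatives called TBK1 in either line.

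IRF3 encodes the transcription factor that TBK1 phosphorylates first. In OPM2 it was at 78.8, 40.5 and 80.6 CPM with dBRD9-A, against 81.1, 80.6 and 79.8 CPM with DMSO. H929 had 92.9, 113 and 95.0 CPM with dBRD9-A, against 115, 113 and 101 CPM with DMSO. Treated replicate 2 was the one low library of OPM2, and without it the log2 fold change of -0.27 ± 0.21 (SE, edgeR adjusted p = 0.386) was -0.03 (adjusted p = 0.865). In H929 the value was -0.13 ± 0.21 (adjusted p = 0.756). None of 22 alternatives called IRF3 in either line. IRF3 overlaps the protein-coding gene BCL2L12, and no source used here gives the strand setting of the counting, so the reads of this pair may not be separated.

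In OPM2 dBRD9-A replicate 2, members with low GC content mostly lay above their group mates and members with high GC content below them. TBK1, with 39.3% GC against a median of 49.7% over all genes tested, was 0.86 above its group mates on the log2 scale. IRF3, TREX1 and TMEM173, with 61.5%, 63.1% and 56.8% GC, were 0.98, 0.81 and 0.82 below them (log2 deviations of -0.98, -0.81 and -0.82). IFIH1 and DDX58, with 43.3% and 40.5% GC, were 0.44 and 0.35 above them, but MB21D1, with 43.6% GC, was below them (-0.39). The part of GC content in these deviations was not tested gene by gene.

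IRF7 encodes the transcription factor that amplifies interferon production. It separated the lines more than any other member. In H929 the level was 19.7, 21.8 and 30.2 CPM with dBRD9-A, against 15.1, 21.3 and 13.3 CPM with DMSO. In OPM2 it was at 0.399, 0 and 0.770 CPM with dBRD9-A, against 0.503, 0.589 and 0.467 CPM with DMSO. The OPM2 libraries held 27, 0 and 51 counts with dBRD9-A and 32, 43 and 36 counts with DMSO. A count of 0 in OPM2 dBRD9-A replicate 2 allows up to 0.126 CPM, the level of 3 counts, which covers counting error only. Treated and DMSO libraries overlapped in both lines. The log2 fold change for dBRD9-A was 0.53 ± 0.37 (SE) in H929 and -0.17 ± 0.51 in OPM2, with edgeR adjusted p of 0.403 and 0.851. Without OPM2 dBRD9-A replicate 2 the H929 value of IRF7 was 0.57 and passed the test (adjusted p = 0.0266), and the OPM2 value was 0.16 (adjusted p = 0.787). The H929 value also passed with H929 fitted alone (0.53, adjusted p = 0.0488) and with limma-voom (0.71, adjusted p = 0.00394).

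In DMSO the lines differed in most members. H929 had higher IRF7, DHX58, IFIH1, MB21D1, DDX58 and TREX1 and lower TMEM173 than OPM2, which is 6 members higher and 1 lower. Of all genes, 60.2% were called in this comparison, 32.6% higher and 27.5% lower in H929, so 7 of 10 is near the background. With a log2 fold change of at least 1 in size also required, 4 members and 36.3% of all genes passed. H929 libraries lay wholly above OPM2 libraries for 8 members and wholly below for 1, against 41.5% and 37.2% of all genes, or 78.7% either way. The median log2 fold change was 0.84 for the members and 0.05 for all genes.

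IRF7 averaged 16.5 ± 4.23 CPM in H929 and 0.520 ± 0.0628 CPM in OPM2 (SD, n = 3 each), a 31.7-fold difference (log2 fold change 4.99 ± 0.46 SE, edgeR adjusted p = 1.4e-06). DHX58 averaged 2.28 ± 0.732 CPM in H929 and 0.312 ± 0.0592 CPM in OPM2 (2.87 ± 0.34, adjusted p = 1.24e-05). IFIH1 averaged 14.2 ± 1.34 CPM in H929 and 2.69 ± 0.216 CPM in OPM2 (2.39 ± 0.16, adjusted p = 8.84e-08). The sensors and IRF7 were thus higher in H929, while the adaptor STING went the other way. TMEM173 averaged 12.2 ± 3.96 CPM in H929 and 52.7 ± 7.40 CPM in OPM2 (-2.11 ± 0.29, adjusted p = 3.97e-05). All of these calls held in 22 of 22 alternatives, as did those on MB21D1 (0.94 ± 0.13, adjusted p = 5.17e-05) and DDX58 (0.92 ± 0.19, adjusted p = 0.00119).

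TREX1 was higher in H929 than in OPM2 by 0.77 ± 0.23 on the log2 scale (edgeR adjusted p = 0.0114), and this call was lost without H929 DMSO replicate 1 (0.63, adjusted p = 0.0652). MAVS differed by -0.07 ± 0.17 (adjusted p = 0.744), TBK1 by 0.23 ± 0.20 (adjusted p = 0.344) and IRF3 by 0.45 ± 0.21 (adjusted p = 0.0796). IRF3 was called in 4 of 22 alternatives, among them the fit without OPM2 dBRD9-A replicate 2 (0.41, adjusted p = 0.00036), and TBK1 in 3.

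Levels of different genes were compared per length, with the TPM values that the authors deposited. In H929 with dBRD9-A the order was IRF3 (56.9 TPM), TMEM173 (42.6 TPM), MAVS (33.7 TPM), MB21D1 (16.2 TPM), TBK1 (13.9 TPM), IRF7 (12.1 TPM), IFIH1 (7.09 TPM), TREX1 (6.89 TPM), DHX58 (2.31 TPM) and DDX58 (1.32 TPM). In H929 with DMSO it was IRF3 (57.3 TPM), MB21D1 (19.0 TPM), MAVS (14.9 TPM), TBK1 (13.9 TPM), IRF7 (7.72 TPM), TREX1 (6.01 TPM), TMEM173 (5.17 TPM), IFIH1 (3.63 TPM), DHX58 (0.798 TPM) and DDX58 (0.563 TPM). TMEM173 was therefore 2nd of 10 with dBRD9-A and 7th of 10 with DMSO. With dBRD9-A the libraries of TMEM173 and MAVS overlapped, as did those of MB21D1 and TBK1, of TBK1 and IRF7, and of IFIH1 and TREX1. With DMSO those of MAVS and TBK1, of IRF7 and TREX1, of TREX1 and TMEM173, of TMEM173 and IFIH1, and of DHX58 and DDX58 overlapped. These overlaps are of ranges and do not compare genes within a library. Within every library with dBRD9-A, TMEM173 was above MAVS and MB21D1 above TBK1. Within every library with DMSO, IRF7 was above TREX1, TREX1 above TMEM173 and TMEM173 above IFIH1. The other overlapping pairs changed order between libraries.

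In OPM2 with dBRD9-A the highest member was TMEM173 (50.9 ± 16.8 TPM, SD, n = 3), whose libraries overlapped those of IRF3 (42.1 ± 15.8 TPM), and the lowest were DHX58 (0.371 TPM) and IRF7 (0.224 TPM), which also overlapped. TMEM173 was above IRF3 within each library with dBRD9-A (31.6 and 23.9 TPM in replicate 2), and without replicate 2 their ranges were apart. In OPM2 with DMSO IRF3 was highest (47.2 ± 0.521 TPM), TMEM173 followed (25.1 ± 3.35 TPM), and IRF7 (0.273 TPM) and DHX58 (0.123 TPM) were lowest. MAVS (19.9 and 17.5 TPM with dBRD9-A and DMSO), TBK1 (18.2 and 13.3 TPM), MB21D1 (9.57 and 11.1 TPM), TREX1 (4.51 and 3.97 TPM), IFIH1 (2.07 and 0.774 TPM) and DDX58 (0.583 and 0.332 TPM) kept the same order between them in both OPM2 groups. Neighbouring libraries overlapped for MAVS and TBK1 and for DDX58 and DHX58 with dBRD9-A, and for DDX58 and IRF7 with DMSO. MAVS was below TBK1 only in dBRD9-A replicate 2 (15.4 and 24.8 TPM), and DDX58 was above IRF7 in every DMSO library.

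Of 10 double-stranded RNA effectors, the genes that act downstream of or beside the sensors, 7 were called higher and 0 lower in OPM2, and 7 and 0 in H929, where 17.4% and 13.0% of all genes were called. The called genes were not the same in each line, since OAS2 was called in OPM2 and not in H929 and OAS3 in H929 (2.70, adjusted p = 0.000465) and not in OPM2, where it had 5 counts in all with dBRD9-A and 1 with DMSO (adjusted p = 0.138). The list had median log2 fold changes of 1.89 and 1.65, where all genes had 0.03 and 0. Leaving out OPM2 dBRD9-A replicate 2 gave 8 higher and 0 lower in each line. IFIT5, which binds viral RNA ends, averaged 3 ± 0.973 CPM with dBRD9-A and 0.490 ± 0.0746 CPM with DMSO in OPM2 (log2 fold change 2.61, edgeR adjusted p = 0.000132), and 6.41 ± 1.10 and 0.956 ± 0.180 CPM in H929 (2.74, adjusted p = 0.000168). IFIT3, a scaffold of the same family, averaged 11.6 ± 7.86 CPM with dBRD9-A and 0.766 ± 0.237 CPM with DMSO in OPM2 (3.91, adjusted p = 0.000524), and 28.1 ± 1.51 and 4.64 ± 1.14 CPM in H929 (2.60, adjusted p = 0.00397). OAS2, which makes oligoadenylates on binding RNA duplexes, averaged 4.05 ± 0.362 CPM with dBRD9-A and 0.784 ± 0.0322 CPM with DMSO in OPM2 (2.38, adjusted p = 3.66e-05). In H929 OAS2 averaged 79.7 ± 24.7 and 66.0 ± 1.77 CPM and was not called (0.27, adjusted p = 0.358). Except where stated, each gene named from these lists as changed kept that call in all 22 alternatives, the fit without OPM2 dBRD9-A replicate 2 among them.

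For the other lists, the shares to set the counts against are 17.4% of all genes called in OPM2 and 13.0% in H929, and 31.7% and 35.7% without OPM2 dBRD9-A replicate 2. The counts of sensor regulators, adaptors, Toll-like receptors and nucleases lay on both sides of these shares and are given as descriptions only. Of 20 tested STING regulators and DNA sensors, 2 were called higher and 2 lower in OPM2 (4 and 2 without dBRD9-A replicate 2), and 2 and 0 in H929 (4 and 3 without that OPM2 library). ZBP1, a sensor of left-handed nucleic acid, averaged 30.2 ± 4.19 CPM with dBRD9-A and 9.33 ± 0.858 CPM with DMSO in OPM2 (log2 fold change 1.70, edgeR adjusted p = 1.02e-05), and 190 ± 7.40 and 189 ± 3.56 CPM in H929 (0.01, adjusted p = 0.971). INSIG1, a membrane protein that helps STING become ubiquitinated, fell by 1.23 in OPM2 on the log2 scale (adjusted p = 0.00235), while H929 had -0.45 (adjusted p = 0.182). Of 22 RNA-sensor regulators, 1 was called higher and 3 lower in each line (without OPM2 dBRD9-A replicate 2, 4 and 5 in OPM2 and 4 and 4 in H929). DDX60, a helicase named as a cofactor of RIG-I, averaged 7.10 ± 0.847 CPM with dBRD9-A and 2.57 ± 0.402 CPM with DMSO in OPM2 (1.46, adjusted p = 0.00275), and 3.10 ± 1.02 and 0.692 ± 0.167 CPM in H929 (2.17, adjusted p = 0.000728). TRIM25, a ubiquitin ligase for RIG-I, averaged 86.1 ± 13.0 CPM with dBRD9-A and 148 ± 2.62 CPM with DMSO in OPM2 (-0.78, adjusted p = 0.00236), while H929 had -0.26 (adjusted p = 0.226). DHX33, another RNA helicase, fell by 0.64 in OPM2 (adjusted p = 0.0113) and by 0.82 in H929 (adjusted p = 0.00384).

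Of 17 MAVS and TBK1 adaptors and kinases, 2 were called higher and 3 lower in OPM2 (5 and 3 without dBRD9-A replicate 2) and 1 each way in H929 (3 each way without that OPM2 library). OPTN, an autophagy receptor that binds TBK1, averaged 50.6 ± 9.85 CPM with dBRD9-A and 14.8 ± 2.32 CPM with DMSO in OPM2 (log2 fold change 1.77, edgeR adjusted p = 7.01e-05), and 43.7 ± 2.65 and 24.4 ± 3.26 CPM in H929 (0.84, adjusted p = 0.0073). TRAF3, a ubiquitin ligase that links MAVS to TBK1, averaged 23.4 ± 1.76 CPM with dBRD9-A and 40.8 ± 1.83 CPM with DMSO in OPM2 (-0.80, adjusted p = 0.00191), and 26.9 ± 2.82 and 38.1 ± 5.26 CPM in H929 (-0.50, adjusted p = 0.0256), where 6 of 22 alternatives lost the call. Of 12 tested endosomal Toll-like receptors and adaptors, 1 was called higher and 1 lower in OPM2 (2 and 3 without dBRD9-A replicate 2), and 1 and 0 in H929 (2 and 2 without it). TLR3, the endosomal receptor for RNA duplexes, averaged 3.90 ± 0.839 CPM with dBRD9-A and 0.987 ± 0.125 CPM with DMSO in H929 (1.98, adjusted p = 0.000888). In OPM2 it had 0.70 (adjusted p = 0.345) at 2 to 10 counts per library. Of 12 tested nucleases and editors, 1 was called higher and 0 lower in OPM2 (3 and 3 without dBRD9-A replicate 2), and 2 and 2 in H929 (3 and 4 without it). SAMHD1, which removes deoxynucleotides, averaged 171 ± 18.5 CPM with dBRD9-A and 93.6 ± 5.66 CPM with DMSO in H929 (0.87, adjusted p = 0.000609), while OPM2 had 0.31 (adjusted p = 0.0658).

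The interferon genes themselves were near 0. Of 21 listed, 18 are in the files under the names used and 12 had no count in any library, so none passed the filter on low counts. The highest count of any of them in a library was 3, and their sum per library was 0 to 6. IFNB1, the interferon-beta gene, had at most 2 counts in a library. Of 14 tested genes of the interferon receptors and their JAK-STAT signalling, 2 were called higher in OPM2 (5 without dBRD9-A replicate 2) and 3 in H929 (8 without that OPM2 library), and none was called lower in these fits, with medians of 0.26 and 0.42. The OPM2 calls, STAT2 and IRF9, were lost in 3 and 11 of 22 alternatives. In H929 those on STAT2 and JAK1 were lost in 4 and 11 of 22. IRF9, a DNA-binding factor of interferon signalling, averaged 45.6 ± 10.7 CPM with dBRD9-A and 24.8 ± 0.570 CPM with DMSO in H929 (log2 fold change 0.88, edgeR adjusted p = 0.0107), a call lost in 1 of 22 alternatives, without H929 DMSO replicate 2 (adjusted p = 0.0502). Of 8 other interferon regulatory factors and partners, 0 were called in OPM2 by edgeR, where 1 higher and 2 lower had an unadjusted p under 0.05, and where DESeq2, and also edgeR without dBRD9-A replicate 2, called 1 higher and 1 lower. In H929, 1 was called lower, IRF4, a factor that plasma cells depend on (-0.72, adjusted p = 0.0450), and 14 of 22 alternatives lost that call.

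Of 8 tested output genes of STING and IRF3, 2 were called higher in OPM2, also without dBRD9-A replicate 2, and 3 in H929 (5 without that OPM2 library), and none lower, with medians of 0.49 and 0.82. The OPM2 calls were RSAD2 and IFIT1, both at low counts. RSAD2 had 19, 6 and 8 counts with dBRD9-A and 1, 5 and 1 with DMSO. IFIT1 had 37, 12 and 23 counts with dBRD9-A and 5, 15 and 12 with DMSO. These calls were lost in 3 of 21 and 1 of 22 alternatives. In H929 IFIT2 was also called, a call lost in 4 of 22. IFIT1 and IFIT2 also belong to the double-stranded RNA effectors, so the lists share genes. RSAD2, an antiviral enzyme, averaged 3.71 ± 1.04 CPM with dBRD9-A and 0.571 ± 0.197 CPM with DMSO in H929 (log2 fold change 2.70, edgeR adjusted p = 0.00107), and IFIT1 averaged 14.3 ± 3.18 and 2.47 ± 0.378 CPM (2.53, adjusted p = 0.000168). The chemokine genes CCL5 (log2 fold changes 0.42 in OPM2 and -0.05 in H929, edgeR adjusted p = 0.245 and 0.921) and CCL4 (1.03 in H929, adjusted p = 0.177, with 4 counts in all with dBRD9-A and 1 with DMSO in OPM2) were tested and not called. ISG15, NFKBIA and TNFAIP3 were also tested and were called in neither line in the reported fit. At an edgeR unadjusted p under 0.05, 2 of the 8 genes were higher in OPM2 and 5 in H929, and 0 lower. CXCL9, CXCL10, CXCL11, IL6, IFNB1 and TNF were too low to be tested. CXCL10 and IL6 had at most 9 counts in a library, CXCL11 at most 2 and CXCL9 at most 1. TNF is listed at 0 in all 12 libraries, but so nearly are RNF5 and SKIV2L, which most cells use and which had at most 4 and 1 counts. The files give these genes as 8, 7 and 6 rows, so nothing is read from their low counts.

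**Figure D3:**
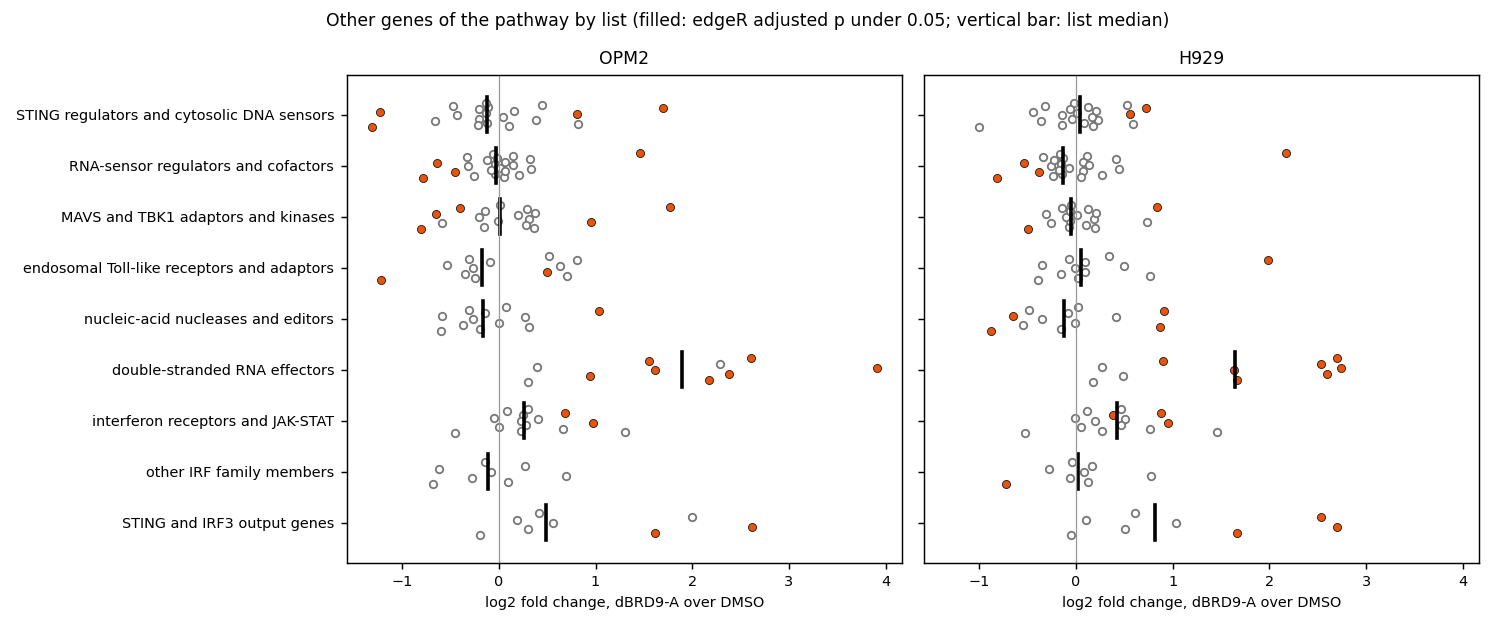
Log2 fold change for dBRD9-A over DMSO of the other tested pathway genes, by list, in OPM2 (left) and H929 (right). Filled points have an edgeR adjusted p under 0.05 and vertical bars are list medians. The double-stranded RNA effectors have the highest medians, 1.89 and 1.65, while the medians of the sensor regulators, adaptors, Toll-like receptors and nucleases lie between -0.17 and 0.05.

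The genes whose log2 CPM followed that of TMEM173 most closely over the 12 libraries were MPRIP (Pearson r = 0.967), SLC7A8 (0.965), P2RX4 (0.961), TRIM38 (0.954) and STAG3 (0.951). For IRF7 they were ARHGAP4 (0.996), HCN2 (0.995), LOC102546298 (0.995), CMTR1 (0.995) and VSIG8 (0.994), none of them a member. These values describe the 12 libraries, which share 2 lines and 2 treatments, and for IRF7 the lines form 2 separate clusters of points. They include OPM2 dBRD9-A replicate 2, where IRF7, HCN2, LOC102546298 and VSIG8 had 0 counts. ARHGAP4 was at 52.6 CPM there, against 161 and 183 CPM in its group mates, and CMTR1 at 27.9 CPM, against 46.3 and 47.1 CPM. Correlations without that library were not computed.

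**Figure D4:**
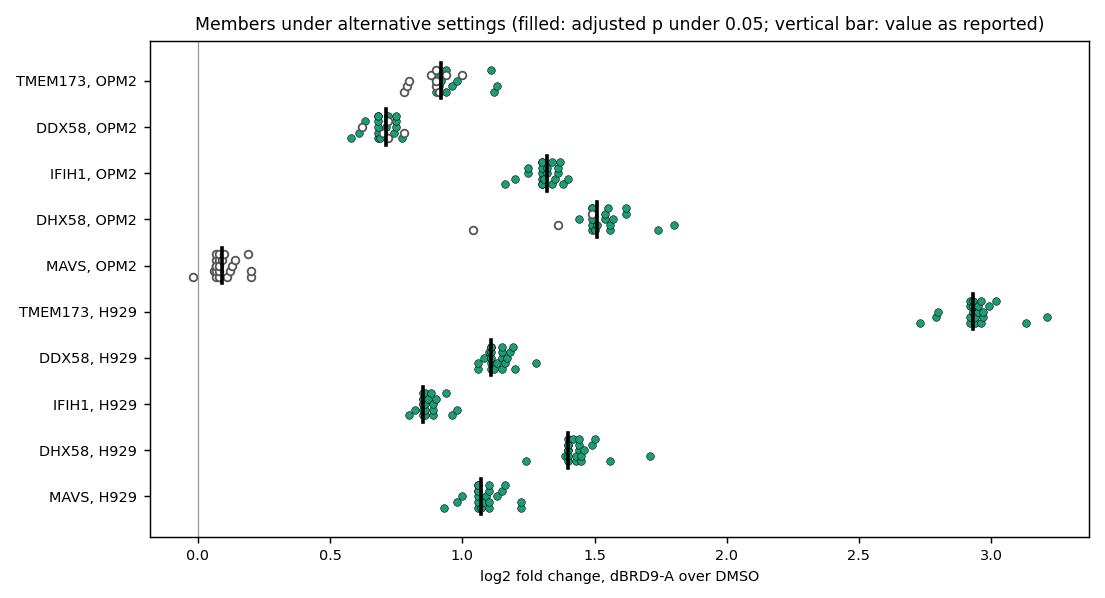
Log2 fold change for dBRD9-A over DMSO of the 5 members called in at least 1 line, in 22 alternative fits per line. Filled points have an adjusted p under 0.05, open points do not, and the vertical bar is the value given in the text. In H929 every fit called all 5 members, while in OPM2 only IFIH1 was called in every fit and MAVS in none.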

How the data were processed

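RNA was measured in 12 libraries of OPM2 and H929 cells. Libraries were stranded and poly(A)-selected, per the labels' protocols. The submitters' processing notes name STAR, featureCounts, hg19 and GRCh37. Tool versions and the strand setting are not given in the sources used here. Per the file headers, the authors deposited a count, an FPKM and a TPM for each of 51780 RefSeq transcripts. The deposited counts are raw whole numbers. The FPKM values deposited by the authors are scaled to length and total and were not used. The deposited TPM values served only to compare levels between genes.

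Each symbol was represented by the row with the highest mean count. IRF3 has 9 rows and MAVS, IRF7 and TREX1 have 3 each. Genes were filtered with filterByExpr by group and scaled with TMM factors in R 4.3.3. Tests used edgeR 4.0.16, whose quasi-likelihood test was fitted over all 4 groups, with 8 residual degrees of freedom. Adjustment was by the Benjamini-Hochberg method over 16408 genes, and the script was tested on simulated data. Log2 CPM values used a prior count of 0.25. Alternatives included RLE factors, library size alone, other filters, a GC trend removed (span 0.5, GC known for 94.4% of genes), DESeq2 1.42.0, limma-voom 3.58.1 with library weights, groups fitted alone and each library left out. The members, the gene lists, the tests and the rule for naming genes were chosen with earlier results of these data known. The rule named the members, BRD9, up to 4 called genes per list and line, or 2 uncalled where none was called, and the 5 genes most like TMEM173 and IRF7. From the lists the text takes mainly those called in all 22 alternatives, a choice made after their values were seen. The cytokine genes, ISG15, NFKBIA, TNFAIP3, RNF5, SKIV2L and ATRIP lie outside the rule. Promoters came from a RefSeq table of another build, GRCh38.p14. RefSeq tables were used for sequences, strands and overlaps, and no coordinates of the files' build are given. GC content came from GENCODE transcript sequences matched to the RefSeq transcripts.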

Additional observations from a re-analysis of the deposited data

Results flagged for a closer look

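TMEM173, ZBP1 and OAS2 responded differently to dBRD9-A in the lines by a test of the difference itself. The response of TMEM173, H929 minus OPM2, was 2.01 on the log2 scale (edgeR adjusted p = 0.0432), and this call was made in 7 of 21 alternatives. ZBP1, a sensor of left-handed nucleic acid, had -1.69 (edgeR adjusted p = 0.00221), with 190 and 189 CPM in H929 with dBRD9-A and DMSO and 30.2 and 9.33 CPM in OPM2. OAS2 had -2.1 (edgeR adjusted p = 0.0053), with 79.7 and 66.0 CPM in H929 and 4.05 and 0.784 CPM in OPM2. ZBP1 and OAS2 were named for their large called changes in OPM2, a choice that favours a difference between the lines. Their differences were not followed in the alternatives, the fit without OPM2 dBRD9-A replicate 2 among them.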

How the results depend on the processing

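Over the members, 785 of 870 alternative values kept their direction and their side of the threshold, 34 lost the call, 19 gained it and 32 changed sign. The cause of these changes was not tested, except that fits on fewer libraries have fewer degrees of freedom. The count of members called in OPM2 was 4 here, 1 with OPM2 fitted alone, 5 with limma-voom and 5 with the GC trend removed, and 1 to 4 when each library was left out. In H929 it was 5, and 5 to 7 in all alternatives. In DMSO it was 7, and 4 with a log2 fold change of at least 1 in size, with 6 to 8 when a library was left out. For the difference of responses it was 1, and 0 with library size alone, 0 with summed rows, 2 with DESeq2, 2 with limma-voom and 0 to 2 when a library was left out. Deviations from the group means in same-numbered libraries correlated at 0.296, -0.023 and -0.116 in OPM2 and at -0.123, -0.168 and -0.123 in H929. Within a group these deviations depend on each other, and OPM2 dBRD9-A replicate 2 stood apart. They therefore cannot show whether a replicate number marks a shared culture. With the replicate block the members called were 2 in OPM2, 5 in H929, 6 in DMSO and 0 for the difference, and all genes called fell to 10.5%, 6.78%, 40.1% and 0.158%. The block also ended the calls on TMEM173 (0.88, adjusted p = 0.0595) and DDX58 (0.72, adjusted p = 0.0739) in OPM2, on TREX1 in DMSO (0.74, adjusted p = 0.0938) and on the difference for TMEM173 (2.06, adjusted p = 0.0990). Values that changed sign were small and were not called. In OPM2 they were IRF3 (0.04) and IRF7 (0.09) with the GC trend removed. In DMSO it was MAVS with the block (0.08). For the difference they were MB21D1 with library size alone (0.00) and the GC trend (0.04), DHX58 with the block (0.01), IRF3 with the GC trend (-0.07) and limma-voom (-0.10), and TREX1 with RLE factors (0.01), library size (0.03), no filter (0.02), summed rows (0.01), the block (0.03) and DESeq2 (0.01). With each library left out, the ranges of those that changed sign were -0.02 to 0.20 for MAVS, -0.93 to 0.16 for IRF7 and -0.17 to 0.29 for TREX1 in OPM2, -0.08 to 0.24 for TREX1 in H929, and -0.22 to 0.06 for MAVS in DMSO. For the difference they were -0.11 to 0.09 for MB21D1, -0.40 to 0.36 for DHX58, -0.07 to 0.31 for IRF3 and -0.18 to 0.25 for TREX1. Depth limits IRF7 and DHX58 in OPM2, which had 0 to 88 counts per library.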
